A study of Mus musculus with 22 samples.

Results

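Ferritin and the genes around it decide how much iron a phagocyte stores, exports and keeps free. The 10 genes described here were the ferritin chains Fth1 and Ftl1, the heme oxygenase Hmox1, the iron exporter Slc40a1, the iron importers Tfrc, Slc11a1 and Slc11a2, the ferritin autophagy receptor Ncoa4, and the iron sensors Ireb2 and Aco1. They were chosen by name, for their part in iron handling, with earlier results of these data known. The choice was made from the 35596 genes to which the deposited transcript counts could be assigned. All 10 passed the filter on low counts, as did 12415 genes in all. Both ferritin chains rose more than 2-fold in microglia that had taken up dead neurons, in wild-type and in Apoe-/- retinas alike. None of the other 8 genes passed the main edgeR test over all 22 libraries. Hmox1 passed under some of the alternatives given below. Slc11a1 and Slc11a2 passed in Apoe-/- cells when the replicate number was a block.

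The libraries were SMART-Seq2 profiles, a full-length cDNA method for few cells, of microglia sorted from the retinas of 12-week-old mice. All mice had received apoptotic neurons by injection into the vitreous, and the deposited gene table states that cells were profiled 24 hours later. Mice were wild type (strain C57BL/6) or Apoe -/- (strain given as Apoe KO), so that the latter lacked apolipoprotein E in all cells, not in microglia alone. Cells with CD11b and Fcrls but without Ly6c were parted by Alexa488 into phagocytic and non-phagocytic ones, which gave 5 wild-type phagocytic, 5 wild-type non-phagocytic, 6 Apoe-/- phagocytic and 6 Apoe-/- non-phagocytic libraries. Each library pooled 5 to 6 retinas of 1 sex and genotype, and 100 to 500 phagocytic cells were collected for each. No group without injected neurons was analysed here, so that phagocytic cells were compared with neighbours from injected eyes and not with resting microglia. P-values measure the spread between pools.

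Iron is stored inside a hollow shell built of ferritin heavy chains, which oxidise iron, and ferritin light chains, which help it to mineralise. Iron enters a macrophage bound to transferrin through the receptor Tfrc, or with engulfed cells whose heme is opened by Hmox1, and it leaves through ferroportin, encoded by Slc40a1. When iron is scarce, the iron regulatory proteins, encoded by Aco1 and Ireb2, bind a hairpin in messenger RNAs, the iron-responsive element, which blocks translation when it lies in the 5′ UTR and protects the transcript when it lies in the 3′ UTR. Ferritin protein is thus set largely by translation, which RNA-seq does not measure.

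The libraries held 1131239 to 3643674 estimated reads. Predicted genes made of satellite repeats took 9.14% to 51.7% of them, which left 854872 to 2890156 reads for other genes. The targeted gene matched the labels in all 22 libraries, with Apoe at 869 to 5140 CPM (reads of the gene scaled by TMM-adjusted library size) in wild-type and at 7.02 to 34.9 CPM in Apoe-/- cells. Each of 8 microglia markers, among them Tmem119, P2ry12 and Sall1, had reads in all 22 libraries. Which pools are of which sex is not labelled. Wild-type pool 5 and Apoe-/- pools 4, 5 and 6 held at most 2.70 CPM of Y-linked genes in both sorts, against 43.7 to 99.6 CPM in the others, and are called female pools below.

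The iron-responsive elements of the ferritin and transferrin receptor transcripts are shown first, since they are the feature by which these genes are known to answer to iron in opposite ways. The GENCODE M21 transcripts annotated as protein coding were searched for this hairpin. It was taken as a bulged C and 5 bases, the loop CAGTGN, and 5 bases that pair with the first 5. The stem was either fully paired or had 1 unpaired base on the 3′ side. The capitals mark the loop. The single elements of Fth1-201 (chr19:9982732-9982761, plus strand, GRCm38) and Ftl1-201 (chr7:45459778-45459807, minus strand) lay in exon sequence of the 5′ UTR. The 4 elements found in Tfrc-201 lay in the 3′ UTR at chr16:32631219-32631248, chr16:32631598-32631627, chr16:32631663-32631692 and chr16:32631710-32631739 (plus strand). An element with another loop or a less well paired stem would be missed by this search, so the matches need not be all.
Fth1 5′ UTR: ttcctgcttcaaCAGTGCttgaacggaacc
Ftl1 5′ UTR: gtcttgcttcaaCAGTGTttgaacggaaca
Tfrc 3′ UTR, element 1: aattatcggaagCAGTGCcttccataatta
Tfrc 3′ UTR, element 2: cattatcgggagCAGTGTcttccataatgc
Tfrc 3′ UTR, element 3: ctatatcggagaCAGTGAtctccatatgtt
Tfrc 3′ UTR, element 4: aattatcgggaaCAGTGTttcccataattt
A match was also found in the 5′ UTR of Slc40a1 and, with 1 unpaired base, in the 3′ UTR of the transcript Slc11a2-205. In all, 5 of the 10 genes carried a match, against 4.03% of 21877 protein-coding genes. Hmox1, Slc11a1, Ncoa4, Ireb2 and Aco1 had no match to this pattern in their transcripts annotated as protein coding.

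Per transcript length, the ferritin chains stood far above the other genes. Levels are given here in TPM, abundance scaled for transcript length and to a common total of the genes not made of satellite repeats. In wild-type phagocytic cells the mean TPM was 15020 ± 5640 for Fth1 and 9701 ± 1873 for Ftl1 (SD, n = 5), and their ranges overlapped. Slc11a1 at 372.9 ± 100.5 TPM and Hmox1 at 229.4 ± 142.0 TPM followed and overlapped each other. Slc11a2 at 54.25 ± 15.27 TPM and Ncoa4 at 47.79 ± 12.02 TPM were next, again with overlap. Ireb2, Aco1, Tfrc and Slc40a1 lay lowest, with means between 9.592 and 18.67 TPM and overlapping ranges. The same steps, from the ferritins to Slc11a1 and Hmox1 and on to the rest, can be read from the plot of CPM by library. Among all genes of a library, Fth1 ranked 1 to 3 by TPM in wild-type phagocytic cells and 1 to 2 in Apoe-/- phagocytic cells, against 3 to 12 and 4 to 10 in the non-phagocytic cells. Ftl1 ranked 3 to 8 and 3 to 12 in phagocytic cells, against 8 to 20 and 12 to 25.

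**Figure D1:**
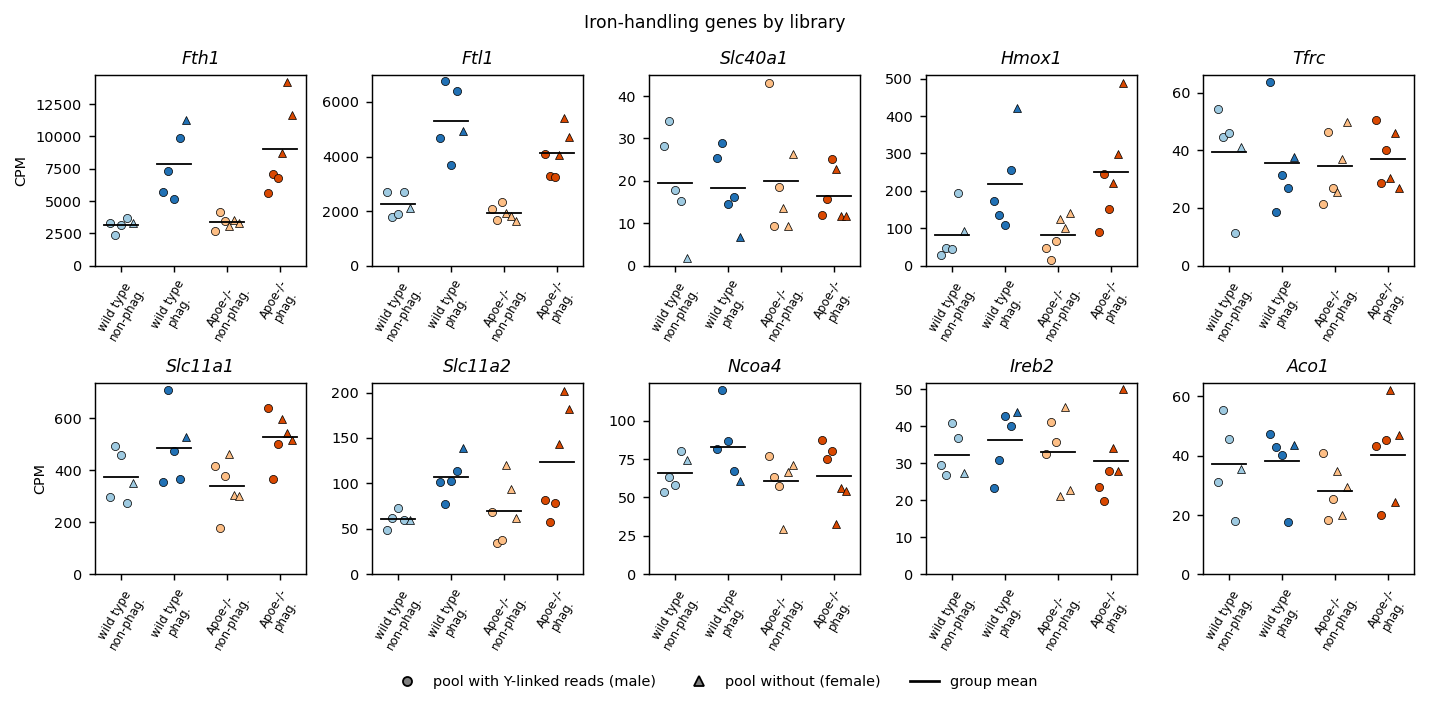
CPM of the 10 genes (y axis, linear from 0, a scale of its own in each panel) in each of the 22 libraries (points) of the 4 groups (x axis), with circles for male and triangles for female pools and a line at the group mean. For Fth1 and Ftl1 every phagocytic library lies above every non-phagocytic library of the same genotype, while Tfrc, Slc40a1, Ncoa4, Ireb2 and Aco1 overlap throughout.

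Fth1, the heavy chain (chromosome 19, 9980598 to 9985098, plus strand), rose in phagocytic cells of both genotypes. In wild-type cells its level was 5663, 7299, 5159, 9862 and 11230 CPM in the phagocytic pools 1 to 5 and 3284, 2362, 3111, 3682 and 3334 CPM in the non-phagocytic pools. The lowest phagocytic pool thus lay above the highest non-phagocytic pool, and the phagocytic pools also spread more widely, with a coefficient of variation of 33.6% against 15.5%. The fold change was 2.49 (log2 1.31 ± 0.26 SE, edgeR adjusted p = 0.0184). This call was lost without any 1 of wild-type phagocytic pools 4 or 5 or non-phagocytic pools 2, 3 or 5, where log2 stayed between 1.15 and 1.34 and the edgeR adjusted p lay between 0.0514 and 0.0779. In Apoe-/- cells the lowest, median and highest levels were 5611, 7909 and 14190 CPM with phagocytosis, against 2702, 3348 and 4173 CPM without. Again no pool overlapped, and the fold change was 2.69 (log2 1.43 ± 0.24, edgeR adjusted p = 0.00528). Leaving out any 1 of these 12 libraries kept the call.

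Ftl1, the light chain (chromosome 7, 45457944 to 45459884, minus strand), moved the same way. Wild-type phagocytic pools 1 to 5 held 4676, 6751, 3695, 6386 and 4933 CPM and non-phagocytic pools 2693, 1787, 1885, 2718 and 2131 CPM. No phagocytic pool reached down to a non-phagocytic one, with a fold change of 2.36 (log2 1.24 ± 0.21, edgeR adjusted p = 0.00694). In Apoe-/- cells the lowest, median and highest levels were 3245, 4082 and 5423 CPM with phagocytosis and 1648, 1872 and 2332 CPM without. These groups were also apart, and the fold change was 2.16 (log2 1.11 ± 0.19, edgeR adjusted p = 0.00624). Leaving out any 1 library of the comparison kept the Ftl1 call in both genotypes.

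The ferritins were the 2 of the 10 genes called in each genotype, both higher. Of all 12415 genes, 0.193% were called higher in wild-type and 0.403% in Apoe-/- phagocytic cells. Groups did not overlap, with phagocytic pools higher, for 1.51% of all genes in wild-type and 0.524% in Apoe-/- cells; among the 10 this held for Fth1 and Ftl1 in both and for Slc11a2 in wild-type cells. The median log2 fold change of the 10 was 0.36 in wild-type and 0.57 in Apoe-/- cells, beside -0.01 and -0.02 over all genes. The 10 were chosen with earlier results of these data known, so these shares and medians do not test the set.

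**Figure D2:**
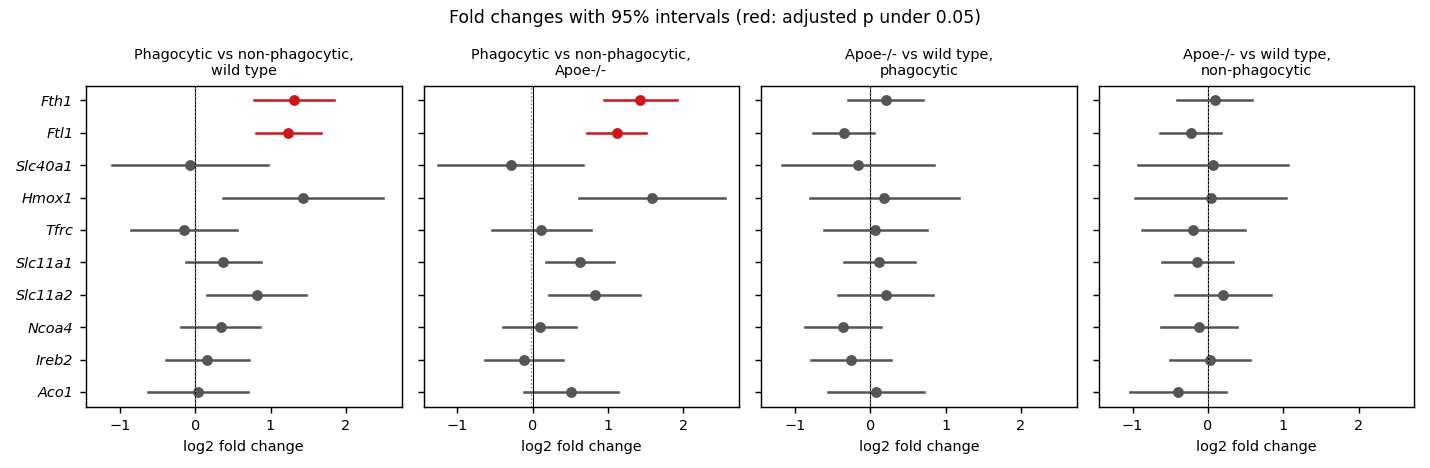
Log2 fold change (x axis) of each gene (y axis) with its 95% interval from edgeR in the 4 comparisons, one a panel, with the median of all genes as a dotted line and red for an adjusted p under 0.05. Only Fth1 and Ftl1 are red, in the 2 panels of phagocytic against non-phagocytic cells, and every interval in the 2 genotype panels crosses 0.

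Fth1 and Ftl1 together took a large part of the transcript pool. Their summed level, in TPM rescaled to leave out the satellite-like genes, was 24720 ± 6790 in wild-type phagocytic (n = 5) and 11170 ± 1472 in non-phagocytic cells (n = 5), and no pools overlapped. The mean difference was 1.11 on the log2 scale, or 2.16-fold, with an exact two-sided permutation p of 0.00794 and an adjusted p of 0.0159 over the 4 comparisons. The sum in Apoe-/- cells was 26300 ± 8231 in phagocytic (n = 6) and 11020 ± 480.2 in non-phagocytic pools (n = 6). That difference was 1.20 on the log2 scale, or 2.30-fold, with an exact permutation p of 0.00216 (adjusted 0.00866). Each of these raw p-values is the smallest that its number of pools allows. Between genotypes the sum differed by less than the spread between pools, by 0.08 on the log2 scale among phagocytic cells (exact permutation p = 0.753) and by -0.01 among non-phagocytic cells (exact permutation p = 0.894).

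The female pools stood at the top of the phagocytic groups. Wild-type phagocytic pool 5, the 1 female pool of that group, had the highest summed ferritin level of its group at 32810 TPM. In Apoe-/- phagocytic cells the male pools 1 to 3 had 19120, 20250 and 19600 TPM and the female pools 4 to 6 had 26360, 38310 and 34140 TPM, without overlap. Among the non-phagocytic libraries, the 7 male ones had 9317 to 13170 TPM and the 4 female ones 11250 to 12030 TPM, so that the 2 sexes overlapped. The difference between the sexes was not tested, and wild-type cells had only 1 female pool. Depth split the phagocytic pools the same way. Apoe-/- phagocytic pools 4 to 6 had 1256371, 1131239 and 1355396 estimated reads, the fewest of all libraries. Wild-type phagocytic pool 5 had the fewest of its group, at 2154319. The part of depth in the split by sex was not tested. In male pools alone, an alternative added after seeing the data, the phagocytic excess of the sum was 1.03 on the log2 scale in wild-type (exact permutation p = 0.0286, adjusted 0.114, 4 pools a group) and 0.89 in Apoe-/- cells (exact permutation p = 0.1, adjusted 0.2, 3 pools a group). The latter raw p is the smallest that 3 pools against 3 allow, and phagocytic pools were all above the non-phagocytic ones there too. Per gene, edgeR on the male pools gave log2 1.15 for Fth1 and 1.22 for Ftl1 in wild-type cells (adjusted p = 0.238 and 0.142) and 0.93 and 0.81 in Apoe-/- cells (adjusted p = 0.869 for both). In that smaller fit 6 genes of all those tested were called in wild-type and 0 in Apoe-/- cells.

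Markers of another cell type moved with the ferritins. Of 8 markers of border macrophages, the macrophages of vessels and meninges, 7 were tested. All 7 were higher in phagocytic cells of both genotypes at an unadjusted p under 0.05 by edgeR, and 2 were called in wild-type and 3 in Apoe-/- cells. Over all genes, 7.74% in wild-type and 9.93% in Apoe-/- cells had an unadjusted p under 0.05 either way, and 0.193% and 0.403% were called higher. The summed level of the 8 was 494 to 970 CPM in wild-type phagocytic against 259 to 374 CPM in non-phagocytic cells, and 409 to 1070 against 193 to 324 CPM in Apoe-/- cells. In Apoe-/- phagocytic cells it was 617, 480 and 409 CPM in the male pools 1 to 3 and 796, 689 and 1070 CPM in the female pools 4 to 6. Wild-type phagocytic pool 5, also female, had 688 CPM, below pools 2 and 4 at 970 and 712 CPM. The most abundant of the 8 was Stab1, with a median of 284 CPM over all libraries; Lyve1 was at 0 in 9 and Cbr2 at 0 in 10 of the 22 libraries, and Cd163 was at most 13.8 CPM. The part of these markers in the ferritin result was not tested. In such bulk samples, more cells of a type and more RNA per cell cannot be told apart. For red blood cells, a source of heme, the summed level of 6 marker genes was at most 4.55 CPM in 20 of 22 libraries. It reached 69.4 CPM in wild-type non-phagocytic pool 4, whose Fth1 level of 3682 CPM and Hmox1 level of 193.5 CPM were the highest of its group. It was 630 CPM in Apoe-/- phagocytic pool 3, whose Fth1 level of 6797 CPM and Hmox1 level of 152.0 CPM were below their group's medians. Wild-type non-phagocytic pool 4 also held 352 CPM of summed neutrophil markers, the most of its group. Apoe-/- non-phagocytic pool 2 held 425 CPM of them and 0 CPM of the red cell markers. Its Fth1 level of 4173 CPM was the highest of its group and its Hmox1 level of 15.96 CPM the lowest. The phagocytic pools highest in neutrophil markers, wild-type pool 4 (407 CPM) and Apoe-/- pool 2 (148 CPM), were not the highest in Fth1. The part of red cell or neutrophil RNA in these levels was not tested.

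The balance of the 2 chains passed the test in none of the 4 comparisons. The ratio of Fth1 to Ftl1 TPM was 1.545 ± 0.4882 in wild-type phagocytic and 1.396 ± 0.1758 in wild-type non-phagocytic cells (SD, n = 5). In Apoe-/- cells it was 2.187 ± 0.4602 with phagocytosis and 1.739 ± 0.4168 without (SD, n = 6). Heavy chain transcripts outnumbered light chain transcripts in all 22 libraries, with the lowest ratio at 1.118. Among phagocytic cells the ratio was 0.52 higher in Apoe-/- on the log2 scale, with an exact permutation p of 0.0519 (adjusted 0.165 over 4 comparisons). The female pools, wild-type pool 5 and Apoe-/- pools 4 to 6, were unevenly split between these groups. In male pools alone that difference was 0.48 (exact permutation p = 0.143, adjusted 0.571). Between phagocytic and non-phagocytic cells it differed by 0.10 in wild-type (exact permutation p = 0.683) and 0.33 in Apoe-/- cells (exact permutation p = 0.123, adjusted 0.165).

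**Figure D3:**
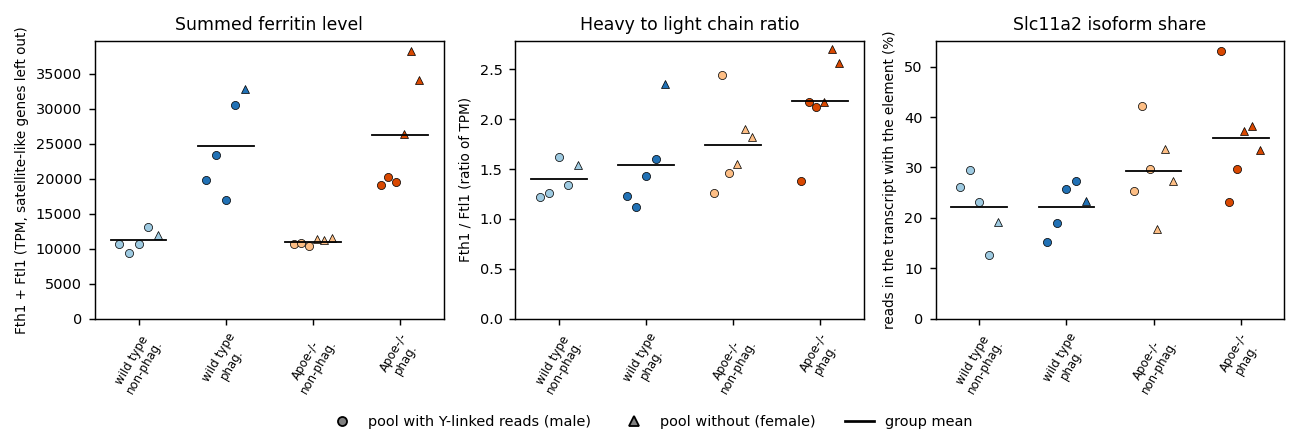
Summed ferritin level (left, TPM), ratio of Fth1 to Ftl1 (middle) and share of Slc11a2 reads in the transcript with an iron-responsive element (right, percent) in each library of the 4 groups (x axis), with circles for male and triangles for female pools and a line at the mean. The left panel parts phagocytic from non-phagocytic pools in both genotypes (means of 24720 against 11170 and 26300 against 11020 TPM), while the ratio and the share overlap between all groups.

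At the level of transcripts, the spliced messenger RNAs parted the sorts and the intron-retaining ones did not. This split was chosen after the values were seen and has no test. Reads assigned to the main spliced transcript Fth1-201 had medians of 7070 and 7730 CPM in wild-type and Apoe-/- phagocytic cells, against 3120 and 3110 CPM in the non-phagocytic cells. The 4 Fth1 transcripts annotated as retaining an intron had medians of 248 and 205 CPM with phagocytosis and 199 and 203 CPM without, and overlapped. Ftl1-201 had medians of 4730 and 3740 CPM in phagocytic cells against 1880 and 1610 CPM. The 2 intron-retaining Ftl1 transcripts had medians of 160 and 192 CPM in phagocytic against 210 and 222 CPM in non-phagocytic cells. As a share of Ftl1 reads, intron-retaining transcripts thus had a median of 2.76% against 8.72% in wild-type and 5.55% against 11.1% in Apoe-/- cells. Salmon divides reads shared by transcripts among them, so that these shares are estimates.

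**Figure D4:**
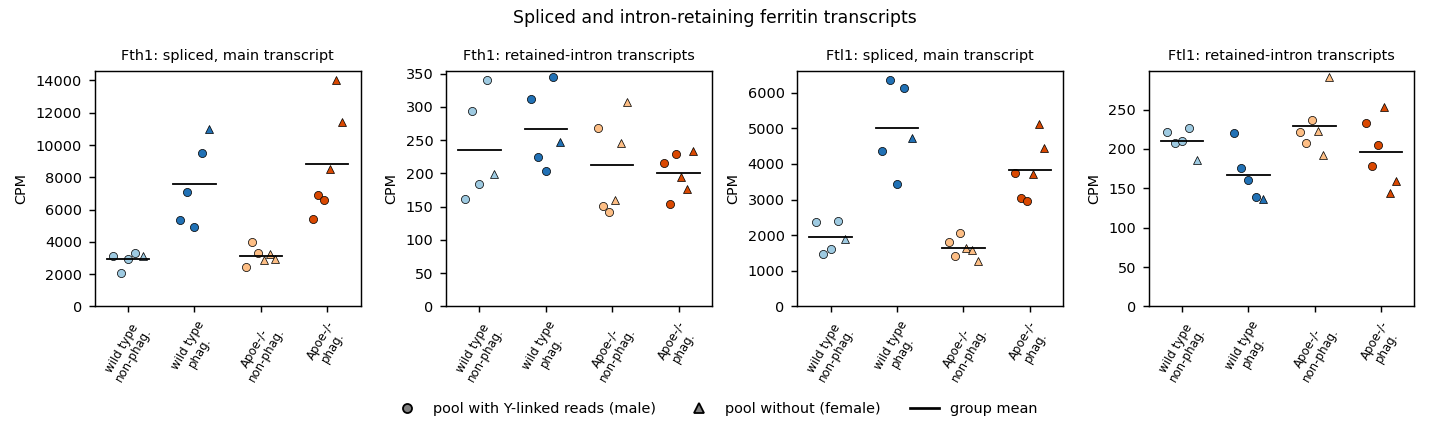
CPM (y axis, from 0) of the main spliced transcript and of the intron-retaining transcripts of Fth1 and Ftl1 in each library of the 4 groups (x axis), with circles for male and triangles for female pools and a line at the mean. The spliced transcripts part the sorts, with medians of 7070 against 3120 CPM for Fth1 in wild-type cells, while the intron-retaining ones lie between 136 and 345 CPM in every library.

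Upstream of the ferritin start sites, the 250 bases before Ftl1 (chr7:45459885-45460134, minus strand, GRCm38, from RefSeq) are shown because its call held in both genotypes without any 1 library. The capitals mark ATTGG, which is the CCAAT box read on the other strand.
Ftl1 upstream region: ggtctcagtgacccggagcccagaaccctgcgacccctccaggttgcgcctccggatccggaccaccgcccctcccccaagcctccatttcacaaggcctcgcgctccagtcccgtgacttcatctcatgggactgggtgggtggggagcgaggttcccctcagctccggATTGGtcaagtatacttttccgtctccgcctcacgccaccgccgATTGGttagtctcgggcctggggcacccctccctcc
The promoter table held 7 of the 10 genes, with 11 promoters of 300 bases; Slc40a1, Hmox1 and Slc11a2 were not among them. CCAAT, searched on both strands, occurred 2 times in the Ftl1 window, 1 time in the window of the main Fth1 start and 1 time in 1 of the Tfrc windows, and in 37.4% of all 32851 promoters. The core of the antioxidant response element (TGACNNNGC) matched 12.4% of all promoters and among these only 1 of Ncoa4. No AP-1 site (TGANTCA, 7.81% of all promoters) or E-box (CACGTG, 7.15%) was found in the 11 windows. Sequence outside these windows was not searched, so that sites farther from the start would be missed.

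Hmox1, which opens heme and sets its iron free (chromosome 8, 75093621 to 75100589, plus strand), had the largest fold change of the 10 genes and also one of the widest spreads. Wild-type phagocytic pools 1 to 5 held 174.1, 134.2, 108.5, 255.0 and 421.0 CPM and non-phagocytic pools 28.19, 46.37, 44.37, 193.5 and 92.73 CPM. The groups overlapped through non-phagocytic pool 4 alone, which lay above the 3 lowest phagocytic pools. The fold change was 2.70 (log2 1.43 ± 0.51, unadjusted p = 0.00982, edgeR adjusted p = 0.415). In Apoe-/- cells the lowest, median and highest levels were 89.47, 234.1 and 487.5 CPM with phagocytosis, against 15.96, 83.3 and 139.5 CPM without, and 5 of 6 phagocytic pools lay above all non-phagocytic ones. The log2 fold change there was 1.58 ± 0.47 (unadjusted p = 0.00245, edgeR adjusted p = 0.167). With no filter on low counts Hmox1 passed in both genotypes (edgeR adjusted p = 0.00421 and 0.000257). Its log2 fold changes hardly moved there, at 1.44 and 1.53, and how many of all genes passed in that setting is not given here. With pool sex as a term Hmox1 passed in Apoe-/- cells (edgeR adjusted p = 0.0386). With the replicate number as a block it passed in both genotypes (edgeR adjusted p = 0.022 and 0.0072).

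Slc11a2, encoding DMT1, which carries iron across the endosomal membrane (chromosome 15, 100387898 to 100425072, minus strand), was higher in every wild-type phagocytic pool, at 101.9, 77.86, 102.5, 113.4 and 139.4 CPM, than in any non-phagocytic pool, at 48.62, 61.7, 73.07, 59.63 and 60.23 CPM. Its log2 fold change of 0.81 ± 0.32 did not pass (unadjusted p = 0.0176, edgeR adjusted p = 0.507). Its lowest, median and highest levels were 57.73, 112.4 and 201.8 CPM against 34.45, 65.44 and 120.8 CPM in Apoe-/- cells. These groups overlapped, and the log2 fold change of 0.82 ± 0.29 did not pass either (unadjusted p = 0.00983, edgeR adjusted p = 0.287). In Apoe-/- phagocytic cells the male pools had 57.73 to 81.49 CPM and the female pools 143.2 to 201.8 CPM. That split was not tested. With the replicate number as a block Slc11a2 passed in Apoe-/- cells (edgeR adjusted p = 0.0265).

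Slc11a2 is transcribed with and without an iron-responsive element. The transcript with the element, Slc11a2-205, held 22.07 ± 4.915% of the gene's reads in wild-type phagocytic and 22.08 ± 6.527% in non-phagocytic cells (SD, n = 5). Its share was 35.82 ± 10.1% in Apoe-/- phagocytic and 29.31 ± 8.209% in non-phagocytic cells (SD, n = 6). Among phagocytic cells the Apoe-/- share was 13.7 percentage points higher, with an exact permutation p of 0.0195 and an adjusted p of 0.0779 over the 4 comparisons. Without Apoe-/- phagocytic pool 2 that difference was 16.3 points with an adjusted exact permutation p of 0.0317, and over the other libraries left out it was 10.3 points or more with an adjusted p up to 0.21. As a share of TPM in place of reads, the difference was 7.73 points (adjusted exact permutation p = 0.0866). In male pools alone it was 13.5 points of reads (exact permutation p = 0.143, adjusted 0.4). Between phagocytic and non-phagocytic cells the share differed by -0.01 points in wild-type (exact permutation p = 1.00) and by 6.51 points in Apoe-/- cells (exact permutation p = 0.255). The element-bearing transcript had 13.38 to 77.31 CPM in Apoe-/- and 14.78 to 32.39 CPM in wild-type phagocytic cells, from 25 to 157 and 40 to 73 reads a library. Such low numbers of reads limit the precision of the share.

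Slc11a1, or NRAMP1, the transporter that removes iron from the phagosome (chromosome 1, 74375195 to 74386062, plus strand), was the most abundant of the transporters. Wild-type phagocytic pools held 356.5, 708.8, 474.2, 366.6 and 529.4 CPM and non-phagocytic pools 297.4, 492.8, 460.4, 275.4 and 353.1 CPM, which overlapped. Its log2 fold change was 0.37 ± 0.24 there (95% interval -0.12 to 0.87). In Apoe-/- cells the lowest, median and highest levels were 366.4, 531.3 and 638.7 CPM against 179.8, 341.3 and 464.1 CPM. The log2 fold change was 0.63 ± 0.22 (unadjusted p = 0.00829, edgeR adjusted p = 0.268), and 5 of 6 phagocytic pools lay above all non-phagocytic ones. With the replicate number as a block Slc11a1 passed in Apoe-/- cells (edgeR adjusted p = 0.0104).

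Tfrc, the transferrin receptor (chromosome 16, 32608920 to 32632794, plus strand), and Slc40a1, ferroportin (chromosome 1, 45908068 to 45926523, minus strand), were the doors of iron at the cell surface. Tfrc had 63.64, 18.66, 31.3, 26.95 and 37.75 CPM in wild-type phagocytic and 54.26, 44.5, 45.86, 11.38 and 41.16 CPM in non-phagocytic pools, with a log2 fold change of -0.15 (95% interval -0.85 to 0.56). Tfrc medians in Apoe-/- cells were 35.21 and 32.04 CPM, with a log2 fold change of 0.11 (95% interval -0.54 to 0.77). Slc40a1 had 25.38, 28.96, 14.58, 16.26 and 6.662 CPM in wild-type phagocytic and 28.19, 34.03, 17.9, 15.18 and 1.733 CPM in non-phagocytic pools. Both groups were lowest in pool 5, where Slc40a1 rested on as few as 4 reads. Its log2 fold change was -0.07 in wild-type (95% interval -1.11 to 0.97) and -0.30 in Apoe-/- cells (95% interval -1.26 to 0.67).

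Ncoa4, the receptor that delivers ferritin to the lysosome for breakdown (chromosome 14, 32159865 to 32179855, plus strand), overlapped between all groups. It had 81.21, 119.7, 86.6, 67.16 and 60.4 CPM in wild-type phagocytic and 53.55, 63.19, 57.79, 80.23 and 74.09 CPM in non-phagocytic pools (log2 0.34, 95% interval -0.19 to 0.86). Apoe-/- medians were 65.43 and 64.85 CPM (log2 0.09, 95% interval -0.39 to 0.58). In Apoe-/- phagocytic cells the male pools had 75.0 to 87.55 CPM and the female pools 32.59 to 55.86 CPM, which was not tested. The iron sensors also overlapped between all groups. Ireb2, or IRP2 (chromosome 9, 54863789 to 54912530, plus strand), lay between 19.96 and 50.17 CPM in all libraries, with log2 fold changes of 0.16 in wild-type and -0.12 in Apoe-/- cells (95% intervals -0.39 to 0.71 and -0.63 to 0.40). Aco1, or IRP1, an aconitase that binds RNA when it lacks its iron-sulfur cluster (chromosome 4, 40143081 to 40198338, plus strand), lay between 17.54 and 62.14 CPM. Its log2 fold changes were 0.04 (95% interval -0.62 to 0.70) and 0.51 (95% interval -0.11 to 1.13).

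Loss of Apoe passed the test for none of the 10 genes by edgeR, in phagocytic or in non-phagocytic cells, and none had an unadjusted p under 0.05 there; DESeq2 called none either. Of all genes, 0.0322% were called between the genotypes among phagocytic and 0.0161% among non-phagocytic cells, while 6.62% and 3.8% had an unadjusted p under 0.05. Ftl1 had the smallest p among phagocytic cells, with 5288 ± 1263 CPM in wild-type (n = 5) and 4139 ± 833.2 CPM in Apoe-/- pools (n = 6). Its log2 difference was -0.35 ± 0.20 (95% interval -0.76 to 0.05, edgeR adjusted p = 0.798). Fth1 differed by 0.20 on the log2 scale (95% interval -0.30 to 0.70) and Hmox1 by 0.19 (95% interval -0.80 to 1.17). These genotype comparisons share their libraries with the comparisons of phagocytosis.

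The size of the response to phagocytosis was set side by side between genotypes in the interaction term of the same edgeR fit. None of the 10 genes passed it, nor did any of all 12415 genes, of which 301, or 2.42%, had an unadjusted p under 0.05. DESeq2 called 2 of all genes and none of the 10 there, and limma on the FPKM values called 0. The log2 difference, Apoe-/- minus wild type, was 0.11 for Fth1 (95% interval -0.59 to 0.82) and -0.12 for Ftl1 (95% interval -0.70 to 0.45). For Hmox1 the interval ran from -1.26 to 1.56.

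Beyond the 10 genes, a list of 66 further genes of iron and heme handling had 51 that were tested. None was called by edgeR in any comparison. At an unadjusted p under 0.05, 8 were higher and 0 lower in wild-type phagocytic cells, and 6 were higher and 3 lower in Apoe-/- phagocytic cells. Over all genes, 7.74% and 9.93% had an unadjusted p under 0.05 in these comparisons, either way. The median log2 fold change of the 51 was 0.05 and 0.12. DESeq2 called 1 of the 51 in wild-type phagocytic cells, Blvrb. It called 0 of the 39 to which it gave an adjusted p for phagocytosis in Apoe-/- cells and 0 of 51 in each other comparison, and limma on the authors' FPKM values called 0 of the 50 it tested.

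Heme uptake and breakdown was the group with most of those genes. Of its 10 tested genes, 4 had an unadjusted p under 0.05 in wild-type phagocytic cells, all higher; in Apoe-/- phagocytic cells 3 were higher and 1 lower at that level. Higher at that level in both genotypes were Blvra, Blvrb and Cd163. Blvra had log2 fold changes of 0.68 ± 0.23 and 0.52 ± 0.21 (edgeR adjusted p = 0.358 and 0.381). Cd163, the receptor for haptoglobin bound to hemoglobin, is also 1 of the 8 border macrophage markers above (log2 1.93 ± 0.91 and 2.10 ± 0.85, edgeR adjusted p = 0.625 and 0.388, at most 13.8 CPM). The lower gene was the exporter Abcg2 (log2 -0.75 ± 0.35, edgeR adjusted p = 0.468). Blvra, Cd163 and Abcg2 were named after their values were seen. Blvrb, a biliverdin reductase that acts after heme oxygenase, had 68.94 ± 17.22 CPM in wild-type phagocytic pools, against 30.74 ± 12.51 CPM without phagocytosis (n = 5), which did not overlap (log2 1.16 ± 0.31, edgeR adjusted p = 0.13). Its log2 fold change in Apoe-/- cells was 0.60 ± 0.28, and those pools overlapped. Hp, the haptoglobin that binds free hemoglobin, ranged from 6.113 to 278.9 CPM among wild-type phagocytic pools and was highest in pool 4, whose summed neutrophil markers of 407 CPM were also the highest of its group; their part in the Hp level was not tested.

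Cp, the ferroxidase ceruloplasmin that works with ferroportin, was the 1 tested gene of the list on iron export. It had 41.78, 74.64, 68.17, 96.68 and 346.0 CPM in wild-type phagocytic and 27.48, 31.41, 52.94, 40.12 and 59.36 CPM in non-phagocytic pools. The high value is the female pool 5, without which the log2 fold change was 0.73 in place of 1.56 ± 0.49 (edgeR adjusted p = 0.297). It was 1.39 ± 0.45 (edgeR adjusted p = 0.211) in Apoe-/- cells, with a median of 140.8 against 60.67 CPM. Cp passed in both genotypes with pool sex as a term (edgeR adjusted p = 0.037 and 0.00386) and with no filter on low counts (edgeR adjusted p = 0.00115 and 0.00292). The latter setting also passed Blvrb and Hp in wild-type cells (edgeR adjusted p = 0.0411 and 0.0035). The log2 fold changes of Cp hardly moved without the filter, at 1.56 and 1.35, and how many of all genes passed there is not given here. Alas1, which starts heme synthesis, had log2 fold changes of 0.65 ± 0.25 and 0.80 ± 0.23 (edgeR adjusted p = 0.487 and 0.155). In the list of mitochondrial iron and iron-sulfur clusters, 13 genes were tested. Iscu, the scaffold on which clusters are built, had 85.25 ± 22.97 CPM in wild-type (n = 5) and 44.92 ± 17.48 CPM in Apoe-/- phagocytic cells (n = 6), a log2 difference of -0.91 ± 0.26 (edgeR adjusted p = 0.393). Nfs1, which supplies their sulfur, had a log2 fold change of 0.70 ± 0.26 with phagocytosis in Apoe-/- and -0.26 ± 0.28 in wild-type cells, with an interaction of 0.97 ± 0.38 (edgeR adjusted p = 1.00).

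**Figure D5:**
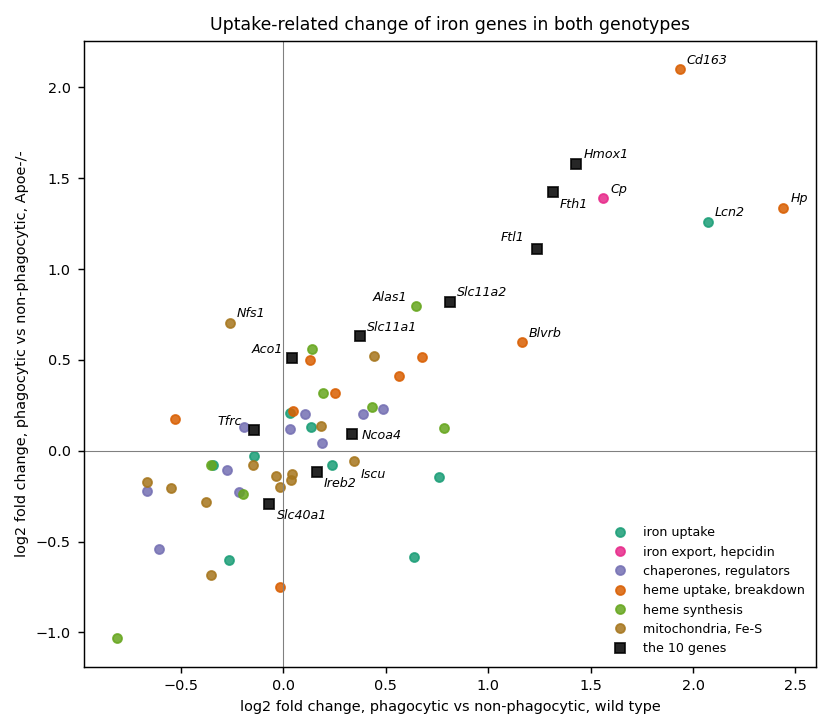
Log2 fold change of phagocytic against non-phagocytic cells in wild-type (x axis) and Apoe-/- retinas (y axis) for the 10 genes (black squares) and the 51 tested genes of the wider lists (circles, coloured by list). Hmox1, Fth1 and Ftl1 lie at the upper right with Cp, Hp, Lcn2 and the border macrophage marker Cd163, while the regulators and the mitochondrial genes lie between -0.7 and 0.8.

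Among the 10 genes themselves, the ferritins and Hmox1 varied together over the 22 libraries. Spearman's rho of log2 CPM was 0.846 between Fth1 and Ftl1 and 0.783 between Fth1 and Hmox1. Slc11a2 followed with 0.567 against Fth1, and Tfrc was at -0.102. Of 6671 protein-coding genes with a mean of at least 20 CPM, those most like Fth1 were Prdx5 (0.913), Sod2 (0.893), Plin2 (0.89), Cstb (0.883) and Rilpl2 (0.878). Those most like Ftl1 were Atp6v0c (0.923), Lamp1 (0.921), Sdcbp (0.92), Esd (0.916) and Lgals3 (0.914). Prdx5 and Sod2 are antioxidant enzymes, Plin2 coats lipid droplets, and Atp6v0c and Lamp1 belong to the lysosomal membrane. All these coefficients are descriptions, since the 22 points share the 2 sorts and each library's depth.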

How the data were processed

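RNA-seq libraries of sorted retinal microglia were analysed from the authors' deposited transcript tables, which per the file headers hold expected counts (estimated reads) and TPM for 116248 transcripts. Per the submitters' processing notes, which give no roles, Salmon 1.4.0, R 4.0.3, DESeq2 1.30.1 and build mm10 were used. Strand, trimming and the annotation are not stated. The authors also deposited FPKM of genes above 5 FPKM, per the file headers, used only in an alternative.

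Transcripts were matched to GENCODE M21 (GRCm38); 116072 matched, and unmatched ones (0.118% to 0.262% of reads) were left out. Expected counts were summed per gene and rounded. The test was edgeR 4.0.16 under R 4.3.3 (quasi-likelihood, TMM, filterByExpr, 1 fit of 22 libraries in 4 groups, common biological coefficient of variation 0.426), with Benjamini-Hochberg adjustment over 12415 genes and a threshold of 0.05. The ferritin sum, the chain ratio and the isoform share were compared by exact two-sided permutation tests. Alternatives used DESeq2 1.42.0, limma 3.58.1 (log2 of FPKM plus 1) and changes of scaling, filter, samples and model. The counts carry no molecular identifiers and can include copies made by PCR. Chi-square over its degrees of freedom was 6.43 to 57.8 between libraries of 1 group, so none was deposited more than once.

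The genes and lists were chosen with earlier results of these data known. Named were all 10 genes, of the wider iron lists the 2 of smallest unadjusted p in each pairwise comparison and any called, and for likeness the 5 genes of highest rho with Fth1 and with Ftl1. Marker lists covered microglia, border macrophages, monocytes, neutrophils, red blood cells, rods, Mueller glia and pigment epithelium. Of the latter lists, called in no comparison were monocytes, neutrophils, rods, Mueller glia and pigment epithelium (6, 2, 7, 5 and 4 genes tested), red blood cells had 0 tested, and microglia had 8 tested and 0 called (edgeR).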

Additional observations from a re-analysis of the deposited data

Results flagged for a closer look

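Aco1 in wild-type phagocytic pool 4 was far from the rest of its group, at 17.5 CPM against 40.3 to 47.2 CPM in the other 4 pools. The non-phagocytic pool of the same number was also the lowest of its group, at 17.9 CPM.

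The ratio of Fth1 to Ftl1 TPM in Apoe-/- phagocytic pool 1 was 1.385, far below the 2.12 to 2.708 of the other 5 pools. Chance alone flags about 1 in 20 such groups, and 2 of 52 were flagged.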

How the results depend on the processing

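Of the 10 genes, the 2 calls in wild-type phagocytic cells became 1 when only the groups compared were fitted, 0 with limma on the authors' FPKM and 0 in male pools alone, and lay between 1 and 2 when single libraries were left out. With limma the adjusted p was 0.074 for Fth1 and 0.0777 for Ftl1 (log2 1.23 and 1.12); with only the groups compared it was 0.0737 for Fth1. The 2 calls in Apoe-/- cells became 0 in male pools alone; over the 12 libraries left out in turn they stayed at 2. In male pools alone the summed ferritin difference was 1.03 in wild-type and 0.89 in Apoe-/- cells on the log2 scale, past no threshold; fewer samples entered that fit. Same-numbered pools were not taken as pairs in the main test, since the labels do not say whether they come from the same retinas. The correlations of their deviations ran from 0.0764 to 0.563 in wild-type (median 0.18) and from 0.0637 to 0.348 in Apoe-/- cells (median 0.27). Pools of unlike number had medians of -0.07 and -0.04. In all, 3 of 5 and 5 of 6 phagocytic pools correlated best with their own number, and each number had the same sex class in both sorts. The main test thus makes no use of a pairing that may exist. With the replicate number as a block the edgeR calls in Apoe-/- cells numbered 5, adding Hmox1, Slc11a1 and Slc11a2 to the ferritins, and 255 genes in all against 58. In wild-type cells they numbered 3 with the block, adding Hmox1. Of the wider list, the block also added Cp in both genotypes, Blvrb and Hp in wild-type and Alas1 in Apoe-/- cells among the genes named. With the replicate block the summed ferritin difference was 1.11 and 1.20 on the log2 scale with an adjusted exact permutation p of 0.0625 for both, a limit set by the number of pairs. The Slc11a2 isoform share of Apoe-/- over wild-type phagocytic cells ranged from 10.3 to 16.3 points when single libraries were left out, and passed without 1 of them. Ftl1 in wild-type cells was called in 13 of 15 alternatives and Fth1 in 12 of 15; in Apoe-/- cells both were called in 14 of 15. Scaling choices moved the median of all genes by at most 0.05 on the log2 scale. Between sorts the signs of Slc40a1, Tfrc, Ireb2, Ncoa4 and Aco1 changed under some alternatives; between genotypes or in the interaction term those of all 10 genes but Ftl1 did, none of them with a call. None of the 10 genes was called between genotypes under any alternative run. Leaving out the 2 libraries of highest satellite-like share, added after seeing the data as was the split by sex, changed no call of the 10. Depth limits Slc40a1, Tfrc, Ireb2 and Aco1 most, with under 200 reads in every library. The cause of these dependences was not tested.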
